A study of Homo sapiens with 6 samples.

Results

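Aldo-keto reductases are enzymes that reduce aldehydes and ketones to alcohols with NADPH. Of the 33007 genes in the deposited expression table of LM3 cells, 7 belong to the set described here, chosen by symbol: AKR1A1, AKR7A2, AKR1B1, AKR1B10, AKR1C1, AKR1C2 and AKR1C3. Each symbol occurred in a single row. LM3 is an established human hepatocellular carcinoma (HCC) cell line. The study sequenced the RNA of 3 control samples and of 3 samples in which ZNF706, a gene for a C2H2 zinc finger protein, was stably knocked down, and asked how the loss of ZNF706 changes gene expression. The labels give the genotype as WT and the treatment as control or ZNF706 knockdown. By the study's methods, the knockdown cells carried a lentiviral pLKO.1 short hairpin RNA and were selected with puromycin, and the controls carried the vector. The study worked with a pair of independent hairpins, and which of them these samples carried is not given in the sources used here. The labels do not say whether the replicates came from separate cultures, so p-values measure the spread between these samples only, which may be technical.

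The family works on many carbonyl compounds. AKR1A1 (aldehyde reductase) and AKR7A2 (aflatoxin aldehyde reductase) act on small and toxic aldehydes. AKR1B1 (aldose reductase) reduces glucose to sorbitol in the polyol pathway, and its relative AKR1B10 reduces retinal and lipid aldehydes and is known for high levels in many HCCs. AKR1C1, AKR1C2 and AKR1C3 are hydroxysteroid dehydrogenases that inactivate progesterone, reduce dihydrotestosterone, and make testosterone and prostaglandin F, respectively. AKR1B10 and the AKR1C genes are well known targets of the oxidative stress regulator NRF2.

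The members lie at 4 places in the genome (GRCh38, positions of the table). AKR1A1 (ENSG00000117448) lies on chromosome 1 at 45550543 to 45570049 on the plus strand, and AKR7A2 (ENSG00000053371) on chromosome 1 at 19303965 to 19312146 on the minus strand. AKR1B1 (ENSG00000085662) lies on chromosome 7 at 134442356 to 134459284 on the minus strand, and AKR1B10 (ENSG00000198074) follows at 134527567 to 134541412 on the plus strand. The AKR1C genes form a cluster on chromosome 10, with AKR1C1 (ENSG00000187134) at 4963253 to 4983283 on the plus strand, AKR1C2 (ENSG00000151632) at 4987400 to 5017955 on the minus strand, and AKR1C3 (ENSG00000196139) at 5035354 to 5107680 on the plus strand.

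The AKR1C genes are so alike that reads can be hard to assign to one of them, which is why their sequences are shown. The first 60 coding bases from GENCODE release 29 follow, with capitals where a base differs from AKR1C1.
AKR1C1: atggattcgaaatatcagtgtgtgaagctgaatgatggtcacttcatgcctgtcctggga
AKR1C2: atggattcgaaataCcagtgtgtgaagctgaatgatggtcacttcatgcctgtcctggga
AKR1C3: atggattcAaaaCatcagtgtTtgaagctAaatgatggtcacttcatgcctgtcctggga
AKR1C2 differed from AKR1C1 at 1 of these positions and AKR1C3 at 4. Over the whole coding sequence, AKR1C1 and AKR1C2 were 98.05% identical, and 478 of 923 stretches of 50 bases in AKR1C1 (51.8%) also occurred in AKR1C2. AKR1C1 shared 14.6% of such stretches with AKR1C3, and AKR1C2 shared 18.3%. AKR1B10 shared 19.7% with its neighbour AKR1B15 and none with AKR1B1. How the authors' counting treated reads that fit more than 1 of these genes is not given in the sources used here, so single values of AKR1C1, AKR1C2 and AKR1C3 are uncertain and their sum is given as well.

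The stretches before the start of the AKR1C genes were compared because the counts of these genes, given below, varied unequally between samples. The 250 bases before the RefSeq start (GRCh38.p14) are chr10:4963165-4963414 on the plus strand for AKR1C1, chr10:5003858-5004107 on the minus strand for AKR1C2 and chr10:5048531-5048780 on the plus strand for AKR1C3. Capitals mark bases without an identical partner in the alignment of AKR1C1 with AKR1C2 (first and second line) and of AKR1C3 with AKR1C1 (last line).
AKR1C1: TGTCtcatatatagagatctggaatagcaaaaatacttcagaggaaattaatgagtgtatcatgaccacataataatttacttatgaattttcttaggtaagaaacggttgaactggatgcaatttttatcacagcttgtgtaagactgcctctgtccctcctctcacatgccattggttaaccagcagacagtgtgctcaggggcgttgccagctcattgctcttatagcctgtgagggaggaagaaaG
AKR1C2: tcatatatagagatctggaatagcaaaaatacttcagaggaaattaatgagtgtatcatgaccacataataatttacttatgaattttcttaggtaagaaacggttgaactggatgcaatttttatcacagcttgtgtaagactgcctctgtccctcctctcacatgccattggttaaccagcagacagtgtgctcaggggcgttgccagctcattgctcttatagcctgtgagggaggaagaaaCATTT
AKR1C3: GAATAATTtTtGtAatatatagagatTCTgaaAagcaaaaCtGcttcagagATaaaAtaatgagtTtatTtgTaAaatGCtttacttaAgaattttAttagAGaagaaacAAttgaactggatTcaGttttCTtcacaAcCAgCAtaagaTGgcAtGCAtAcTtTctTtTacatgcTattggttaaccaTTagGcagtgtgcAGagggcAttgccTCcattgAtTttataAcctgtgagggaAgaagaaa
The AKR1C1 and AKR1C2 stretches were identical in 245 of 254 aligned positions (96.5%), and the unmatched bases all lay at their ends. AKR1C1 and AKR1C3 were identical in 71.4% of aligned positions. RefSeq promoters of 300 bases, 250 before and 50 after the start, were matched for 6 of the 7 members. TGACNNNGC, the core letters of the antioxidant response element that NRF2 binds, occurred 3 times in the AKR7A2 promoter and in none of the other 5 on either strand, against 13.6% of 27305 promoters that hold it. TGANTCA, the AP-1 motif, which can lie in the same letters, was in none of the 6 and in 7.76% of all promoters. GGGCGG, the GC box, occurred in the promoters of AKR1A1, AKR1B1 and AKR7A2 and in 44.6% of all promoters. A match is a run of letters in this window and not a measured site.

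The reads counted on genes came to 62684076, 64713764 and 63054445 in control replicates 1 to 3, and to 68548419, 65861994 and 69057423 in knockdown replicates 1 to 3. ZNF706 had 3211, 3504 and 3357 counts in the controls and 2350, 2068 and 2298 in the knockdown samples, so the groups did not overlap. In CPM (the count relative to the TMM-scaled library size, in parts per 1e+06), ZNF706 stood at 53.9 ± 1.76 (SD, n = 3) in the control and 32.4 ± 1.39 (SD, n = 3) with the knockdown, a log2 fold change of -0.73 (SE 0.050).

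Control replicate 1 stood apart from the other samples in several members, so their values are given below with and without it. Its CPM was 3.26-fold that of the highest other sample for AKR1C2, 2.68-fold for AKR1B10 and 1.96-fold for AKR1C3. Among the 12766 genes that averaged at least 100 counts, 29 (0.227%) were at least 1.5-fold higher in control replicate 1 than in every other sample, and 3 of the 7 members were among them. In the other samples, 7 to 18 genes stood out in this way. Genes of related function, named after their values were seen, were also among the 29. ALDH1A1 (retinal dehydrogenase) had 83.6, 3.30 and 19.0 CPM in the controls and 15.3, 14.9 and 0.0572 CPM in the knockdown samples. ALDH3A1, an aldehyde dehydrogenase, had 34.8, 4.58 and 8.42 CPM against 9.74, 11.3 and 6.13 CPM. HPGD, which inactivates prostaglandins, had 4.35, 1.42 and 1.69 CPM against 1.77, 1.52 and 0.586 CPM. For ALDH1A1, ALDH3A1 and HPGD alike, control replicate 1 held the highest value, and for ALDH1A1 and HPGD knockdown replicate 3 held the lowest.

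Part of the hepatic markers also set control replicate 1 and knockdown replicate 3 below the other libraries. ALB (albumin) stood at 3.05, 14.1 and 14.4 CPM in the controls and at 8.37, 9.47 and 1.97 CPM in the knockdown samples. TF (transferrin) stood at 0.598, 5.68 and 6.11 CPM against 3.34, 3.18 and 0.343 CPM. Both were lowest in control replicate 1 and knockdown replicate 3, as were 7 of the 15 listed markers in all. The other 8 did not follow this order. The order was described after the values were seen, and its share over all genes was not computed. EPCAM, among those that followed it, had only 6 to 74 counts in a sample. HNF4A, a hepatocyte transcription factor, had 1.97 CPM in control replicate 1 and 0.386 to 1.04 CPM elsewhere, and APOA1, an apolipoprotein, was lowest in knockdown replicates 1 and 2. TTR had no count in control replicate 1 and knockdown replicate 3, where a count of 0 allows up to 3 counts, and the epithelial keratins KRT8 and KRT18, the most abundant markers of the list, stood at 1482 to 1604 and 887 to 1015 CPM. The 15 listed hepatic markers summed to 2444, 2515 and 2642 CPM in the controls and 2391, 2475 and 2512 CPM in the knockdown samples, nearly all of it from KRT8 and KRT18. The other 13 summed to 15.8, 39.6 and 45.8 CPM against 22.9, 23.9 and 9.30 CPM, least in knockdown replicate 3 and then in control replicate 1. The median log2 fold change of the 14 tested markers was -0.69, beside 0.0095 over all tested genes, or -1.02 without control replicate 1. Of the 14 markers, 2 were lower with the knockdown, beside 12.4% of all tested genes. They were SERPINA1 (log2 fold change -1.47) and APOB (-0.98), both plasma proteins of the liver. The call of APOB was lost without control replicate 2, control replicate 3, knockdown replicate 1 or knockdown replicate 3 (edgeR adjusted p between 0.0663 and 0.0868). Without control replicate 1 there were 3 lower, and without both control replicate 1 and knockdown replicate 3 there were 5. Leaving out control replicate 3 or knockdown replicate 1 gave 1 lower. Fibroblast markers summed to 79.7 to 89.4 CPM in the controls and 95.3 to 97.1 CPM in the knockdown samples. Of the 5 tested, 2 were higher, COL1A1 (0.20) and PDGFRB (0.68), beside 10.4% of all tested genes. COL3A1 (-2.04), LUM (-1.26) and DCN (-0.039) had negative log2 fold changes and did not pass, and the list median was -0.039. Control replicate 1 was the highest sample for COL3A1 (5.43 CPM), LUM (2.63 CPM), COL1A2 (1.89 CPM), DCN (0.792 CPM) and PDGFRA (0.469 CPM). It was not the highest for COL1A1 and PDGFRB. COL1A2 and PDGFRA did not pass the filter on low counts. COL1A2 also reached 1.70 CPM in knockdown replicate 3 and was at most 0.126 CPM elsewhere. Leukocyte markers summed to 0.499 to 1.68 CPM, with PTPRC at 0.129 CPM or less. Endothelial markers summed to 13.6 to 16.3 CPM in the control and 11.2 to 13.1 CPM in the knockdown samples. CDH5 (-0.70), 1 of the 2 tested, was lower, beside 12.4% of all tested genes. The other, PECAM1 (0.15, edgeR adjusted p = 0.536), had the opposite sign and did not pass. The part of these differences in the values of the members was not tested. In bulk samples, fewer cells of a kind and less RNA per cell cannot be told apart.

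**Figure D1:**
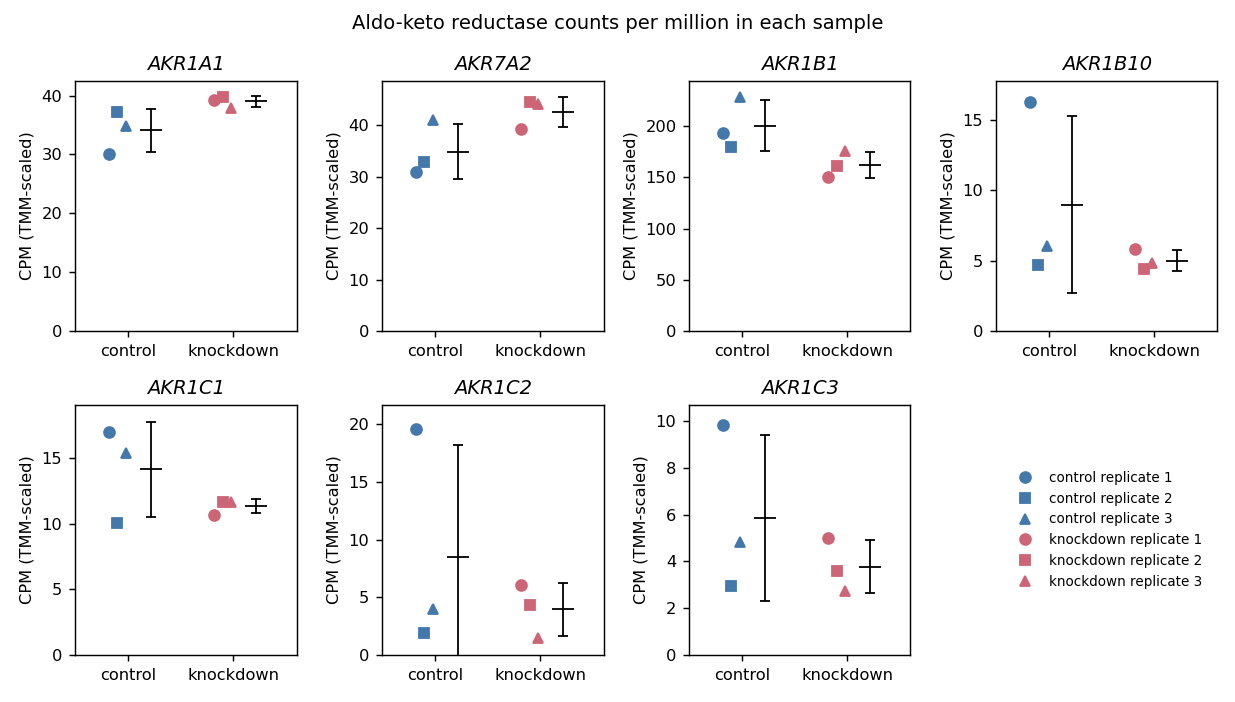
CPM (linear axes from 0) of each of the 7 members in the 3 control samples (blue) and 3 knockdown samples (red), one symbol per replicate, with the mean and SD of each group (bar). Control replicate 1 (blue circle) is the highest sample for AKR1B10, AKR1C1, AKR1C2 and AKR1C3 and the lowest for AKR1A1 and AKR7A2; the lower end of the AKR1C2 control bar falls below 0 and is not drawn.

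All 7 members passed the filter on low counts. In edgeR's quasi-likelihood test, adjusted by Benjamini-Hochberg over 18390 genes, 1 of the 7, AKR1B1, was lower with the knockdown and 0 were higher at an adjusted p below 0.05. Across all tested genes the background was 12.4% called lower (2286) and 10.4% called higher (1906), or 22.8% in either direction. With scaling by library size alone, the split over all genes was 1518 lower and 2742 higher. At an unadjusted p below 0.05, AKR1A1 and AKR7A2 were higher, as were 16.9% of all genes. By DESeq2 1 member, AKR7A2, was called higher, against 14.0% of the 14912 genes with an adjusted p. The median log2 fold change of the 7 members was -0.32, beside 0.0095 over all tested genes. Without control replicate 1, 1 member was lower, 0 were higher and the median was -0.04. The groups did not overlap for 2 of the 7 members, AKR1A1 and AKR1B1, against 39.4% of all tested genes.

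AKR1A1, the aldehyde reductase, had 1866, 2364 and 2142 counts in the controls and 2752, 2671 and 2656 in the knockdown samples. That is 30.2, 37.2 and 34.9 CPM against 39.2, 39.8 and 38.0 CPM. Every knockdown sample was above every control sample, and control replicate 1 was the lowest. The means were 34.1 ± 3.59 and 39.0 ± 0.954 CPM (SD, n = 3 each), a log2 fold change of 0.19 (SE 0.074, 95% interval 0.029 to 0.36) with an edgeR adjusted p of 0.0892. Leaving out control replicate 1 gave 0.11 (edgeR adjusted p = 0.243). It passed the threshold with scaling by library size alone (0.25, edgeR adjusted p = 0.0346).

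AKR7A2, the aflatoxin aldehyde reductase, had 1908, 2086 and 2512 counts in the controls and 2748, 2979 and 3080 in the knockdown samples, or 30.8, 32.8 and 40.9 CPM against 39.2, 44.4 and 44.0 CPM. The groups overlapped, since control replicate 3 lay above knockdown replicate 1. The log2 fold change was 0.29 (SE 0.099, 95% interval 0.067 to 0.51), from 34.9 ± 5.35 to 42.5 ± 2.91 CPM (SD, n = 3 each), with an edgeR adjusted p of 0.0631. Its call depended on the setting. Without control replicate 3 it was 0.42 (edgeR adjusted p = 0.00743), without control replicate 1 it was 0.20 (edgeR adjusted p = 0.197), and DESeq2 gave 0.29 (adjusted p = 0.0115). A small nuclear RNA gene that lies in AKR7A2 on the same strand, RNU6-1099P, had at most 5 counts in a sample.

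AKR1B1, aldose reductase, was the member with the most counts, with 11971, 11416 and 14014 in the controls and 10520, 10798 and 12297 in the knockdown samples. In CPM it stood at 193.4, 179.6 and 228.3 against 150.0, 161.0 and 175.7. Each knockdown sample was below each control sample, although knockdown replicate 3 and control replicate 2 nearly met. AKR1B1 fell by 19.1%, from 200.4 ± 25.1 to 162.2 ± 12.9 CPM (SD, n = 3 each), a log2 fold change of -0.30 (SE 0.084, 95% interval -0.49 to -0.12) with an edgeR adjusted p of 0.0273. It was -0.33 without control replicate 1 (edgeR adjusted p = 0.0481). The call was lost when control replicate 3 (-0.20, edgeR adjusted p = 0.0769), knockdown replicate 1 (-0.25, edgeR adjusted p = 0.0963) or knockdown replicate 2 (-0.30, edgeR adjusted p = 0.0959) was left out. SORD, which takes the next step of the polyol pathway from sorbitol to fructose, stood at 90.8 ± 1.54 CPM in the control and 90.8 ± 1.52 CPM in the knockdown samples (SD, n = 3 each).

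AKR1B10 had 1004, 298 and 371 counts in the controls and 408, 296 and 336 in the knockdown samples. In CPM these were 16.2, 4.69 and 6.04 against 5.82, 4.41 and 4.80. Control replicate 1 was far above the other 5 samples, among which the groups overlapped. The log2 fold change was -0.84 (SE 0.387, 95% interval -1.71 to 0.024) with an edgeR adjusted p of 0.155, and without control replicate 1 it was -0.10 (edgeR adjusted p = 0.756). AKR1B10 thus had a mean of 8.98 ± 6.30 CPM in the control and 5.01 ± 0.725 CPM with the knockdown (SD, n = 3 each). Within each sample, AKR1B10 had 0.0839, 0.0261 and 0.0265 counts per AKR1B1 count in the controls and 0.0388, 0.0274 and 0.0273 in the knockdown samples. This ratio takes no library scaling, and only control replicate 1 and, less so, knockdown replicate 1 lay above the others (exact two-sided permutation p = 1). With 3 samples against 3, such a test cannot go below 0.1.

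AKR1C1 had 1053, 641 and 946 counts in the controls and 751, 782 and 819 in the knockdown samples, or 17.0, 10.1 and 15.4 CPM against 10.7, 11.7 and 11.7 CPM. Control replicate 2 lay below all 3 knockdown samples, so the groups overlapped. The log2 fold change was -0.32 (SE 0.167) with an edgeR adjusted p of 0.213. Without control replicate 2 it was -0.52 (edgeR adjusted p = 0.0109), and without control replicate 1 it was -0.17 (edgeR adjusted p = 0.549).

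AKR1C2 varied most of the 7 between samples, with 1215, 120 and 242 counts in the control and 423, 292 and 104 counts in the knockdown samples. Its CPM was 19.6, 1.89 and 3.94 against 6.03, 4.35 and 1.49. Control replicate 1 was the highest and knockdown replicate 3 the lowest, and the groups overlapped. The log2 fold change was -1.10 (SE 0.745, 95% interval -2.77 to 0.57) with an edgeR adjusted p of 0.341. Its sign turned without control replicate 1, to 0.44 (edgeR adjusted p = 0.629), and without control replicate 1 and knockdown replicate 3 together it was 0.83 (edgeR adjusted p = 0.147). AL391427, on the opposite strand within AKR1C2, had at most 3 counts in a sample.

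AKR1C3 had 607, 187 and 295 counts in the controls and 351, 241 and 191 in the knockdown samples, or 9.81, 2.94 and 4.81 CPM against 5.01, 3.59 and 2.73 CPM. As for AKR1C2, control replicate 1 was the highest and knockdown replicate 3 the lowest, and the groups overlapped. The log2 fold change was -0.63 (SE 0.383) with an edgeR adjusted p of 0.285, and -0.04 without control replicate 1 (edgeR adjusted p = 0.949).

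The 3 AKR1C genes summed to 46.5, 14.9 and 24.2 CPM in the controls and 21.7, 19.6 and 15.9 CPM in the knockdown samples. This sum does not depend on how reads were split among the genes, but it would on shared reads that were dropped or counted more than once. It again had its highest value in control replicate 1, while control replicate 2 was the lowest of all 6. The log2 fold change of the sum was -0.58 (SE 0.324, edgeR adjusted p = 0.245). Without control replicate 1 it was -0.04 (edgeR adjusted p = 0.930), and without control replicate 2 it was -0.89 (edgeR adjusted p = 0.0423). The balance within the cluster also changed between samples of a group. There were 0.867, 5.34 and 3.91 AKR1C1 counts per AKR1C2 count in the controls and 1.78, 2.68 and 7.88 in the knockdown samples. Control replicate 1 was the only library with more AKR1C2 than AKR1C1 counts, and knockdown replicate 3 had the fewest AKR1C2 counts for each AKR1C1 count. The ratio of AKR1C1 to AKR1C3 was 1.74, 3.43 and 3.21 against 2.14, 3.25 and 4.29, lowest and highest in the same libraries. The mean log2 ratios differed between the groups by 0.35 and 0.21, within the spread of the replicates (exact two-sided permutation p = 0.7 and p = 0.6), and 3 samples against 3 cannot reach the threshold in this test. With single samples left out, the first difference ranged from -0.45 to 0.86.

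**Figure D2:**
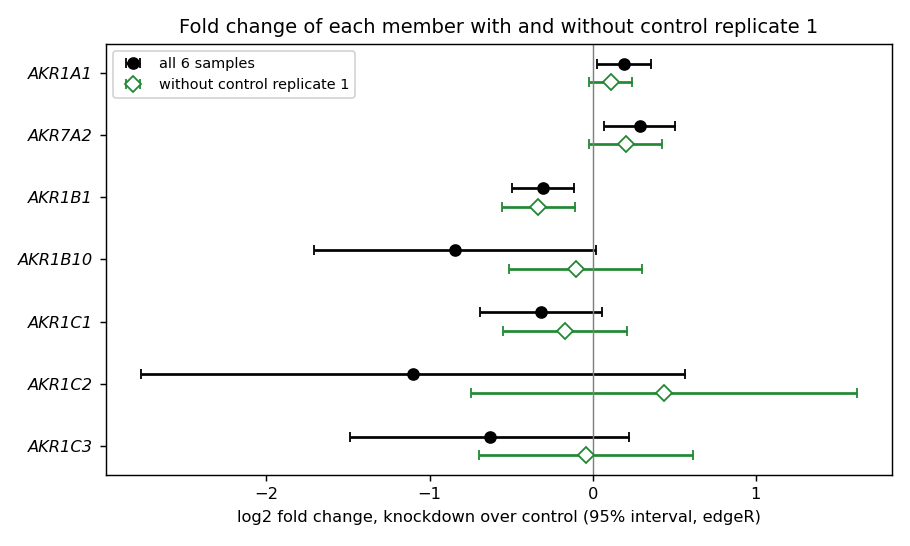
log2 fold change of each member, knockdown over control, from edgeR's fit to all 6 samples (black circles) and without control replicate 1 (green diamonds), with 95% intervals as bars. AKR1B10 moves from -0.84 to -0.10, AKR1C2 from -1.10 to 0.44 and AKR1C3 from -0.63 to -0.04, while AKR1B1 stays at -0.30 and -0.33.

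The levels of the members differed widely. On the authors' FPKM scale, which divides by gene length, the control means were 47.3 ± 5.60 for AKR1B1, 16.9 ± 2.43 for AKR7A2 and 9.38 ± 0.948 for AKR1A1 (SD, n = 3 each). AKR1B10 followed at 4.37 ± 3.11 FPKM, and then AKR1C1 at 1.39 ± 0.362, AKR1C3 at 1.28 ± 0.794 and AKR1C2 at 1.14 ± 1.31 FPKM, whose order among themselves was within their spread. Without control replicate 1, AKR1B10 averaged 2.59, AKR1C1 1.25, AKR1C3 0.84 and AKR1C2 0.385 FPKM. The knockdown means kept the order of the first 5 genes, at 39.6, 21.3, 11.1, 2.52 and 1.16 FPKM, followed by AKR1C3 at 0.85 and AKR1C2 at 0.543 FPKM. The order depends on the lengths used. The FPKM values imply 9990 bases for AKR1C1 and 2027 for AKR1B10, whereas the coding lengths of all members lie between 951 and 1080 bases. Per kilobase of coding sequence, the control means were 210.8 ± 26.4 CPM for AKR1B1, 34.8 ± 3.67 for AKR1A1, 32.3 ± 4.95 for AKR7A2 and 14.6 ± 3.73 for AKR1C1 (SD, n = 3 each). They were 9.45 ± 6.63 for AKR1B10, 8.73 ± 9.99 for AKR1C2 and 6.02 ± 3.65 for AKR1C3, whose order was within their spread. Without control replicate 1 these last means were 5.64 for AKR1B10, 3.0 for AKR1C2 and 3.99 for AKR1C3, so that AKR1C2 lay below AKR1C3. AKR1A1 and AKR7A2 lay within each other's spread per coding kilobase. AKR1B1 held 58.6% to 68.3% of the members' summed CPM in every sample, and AKR1C2 held 6.19% in control replicate 1 against 0.534% to 2.36% in the others.

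Other genes of the superfamily were less abundant than AKR1B1. Of 18 listed, 11 were in the table and 7 were tested, of which 1 was higher and 1 lower, beside 10.4% and 12.4% over all genes, and the median log2 fold change was -0.33. AKR1B15, next to AKR1B10 on chromosome 7 and known as a ketone reductase of steroids, had 537, 562 and 550 counts in the controls and 498, 454 and 508 in the knockdown samples. Unlike AKR1B10, it had close values within each group, at 8.83 ± 0.142 and 7.04 ± 0.251 CPM (SD, n = 3 each), and the groups did not overlap. Its log2 fold change was -0.33 (SE 0.096, edgeR adjusted p = 0.0361), a call that was lost whichever single sample was left out (edgeR adjusted p between 0.070 and 0.125), and also with DESeq2, library size alone or the replicate block. AKR1B10 and AKR1B15 together gave -0.56 (SE 0.199, edgeR adjusted p = 0.0696). Without control replicate 1 their sum gave -0.25 (edgeR adjusted p = 0.155), and without control replicate 2 it gave -0.73 (edgeR adjusted p = 0.0347). KCNAB2, a potassium channel beta subunit of the same fold, rose from 18.2 ± 0.786 to 22.4 ± 1.20 CPM (SD, n = 3 each), a log2 fold change of 0.30 (SE 0.076, edgeR adjusted p = 0.0186). This call was lost without control replicate 2, control replicate 3, knockdown replicate 1 or knockdown replicate 2 (edgeR adjusted p between 0.0522 and 0.0771), and in both limma fits (limma adjusted p = 0.0740 and 0.0652). KCNAB1 (-0.18), KCNAB3 (-0.43), AKR7L (-0.33), AKR7A3 (0.21) and AKR1C7P (-0.57) did not pass the test. AKR1D1, the steroid 5-beta-reductase of the liver, AKR1E2, AKR1B10P1 and AKR1B1P2 had too few counts to be tested. AKR1C4 was not analysed here.

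Within 200000 bases of the clusters, no tested gene outside the family passed edgeR's test. Near the AKR1C cluster, RPL26P28 was the 1 such gene (log2 fold change -0.56, edgeR adjusted p = 0.0863). Its groups did not overlap, and it passed in limma's fits to log2(FPKM + 0.1) and log2(FPKM + 1) (limma adjusted p = 0.0106 and 0.00995). Around AKR1B1 and AKR1B10, SLC35B4 (-0.06), AC009275 (0.06) and BPGM (-0.06) were tested and did not pass.

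**Figure D3:**
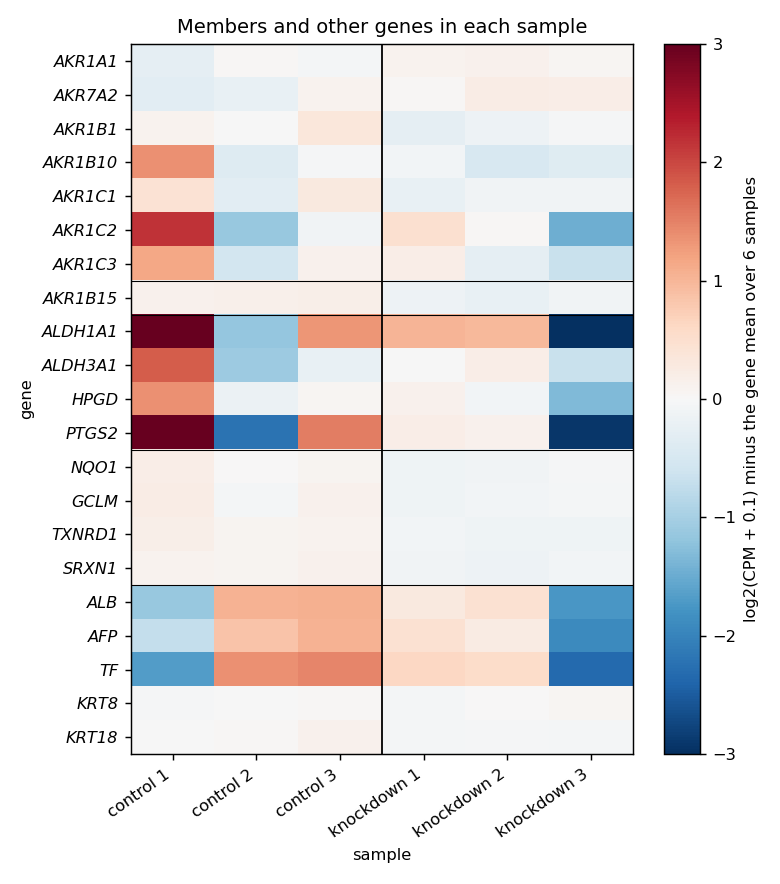
Heat map of log2(CPM + 0.1) minus the gene's mean over the 6 samples (red above, blue below; colours end at -3 and 3) for the members, AKR1B15, the 4 genes high in control replicate 1, 4 NRF2 targets and 5 hepatic or epithelial markers. Control replicate 1 is red for AKR1B10, AKR1C2, AKR1C3, ALDH1A1, ALDH3A1, HPGD and PTGS2 and blue for ALB, AFP and TF. The markers drawn were picked after their values were seen, and others that went otherwise, such as HNF4A and APOA1, are not drawn. The NRF2 targets are close to white in every sample on this wide colour scale. Of these, TXNRD1 (log2 fold change -0.24), SRXN1 (-0.22) and NQO1 (-0.19) were lower with the knockdown (edgeR adjusted p = 0.00096, 0.0019 and 0.021). GCLM (-0.19) did not pass (edgeR adjusted p = 0.058).

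NRF2 target genes were examined because AKR1B10 and the AKR1C genes belong to them. Of 30 listed and tested regulators and targets, 2 were higher and 12 lower with the knockdown, beside 10.4% higher and 12.4% lower over all genes. Their median log2 fold change was -0.12, beside 0.0095 over all genes. With control replicate 1 left out, 2 were higher and 9 lower, and without a filter on low counts 7 were lower. Among the called genes of at least 1 CPM, the largest falls were MAFF (-0.75), a small MAF partner of NRF2, EPHX1 (-0.55), an epoxide hydrolase, OSGIN1 (-0.47), BACH1 (-0.39), a repressor of NRF2 targets, and ABCC3 (-0.36), an export pump. NQO1, the quinone reductase often read as a measure of NRF2 activity, had 152.9, 134.6 and 142.4 CPM in the controls and 122.8, 123.6 and 130.5 CPM in the knockdown samples. The groups did not overlap for NQO1, whose log2 fold change was -0.19 (SE 0.049, edgeR adjusted p = 0.0212). The call of NQO1 was lost without control replicate 1, control replicate 3, knockdown replicate 1 or knockdown replicate 2 (edgeR adjusted p between 0.0555 and 0.0913), that of OSGIN1 whichever sample was left out (between 0.058 and 0.130), and that of ABCC3 without control replicate 1 or knockdown replicate 3 (0.0676 and 0.0554). OSGIN1 also missed the threshold with DESeq2, library size alone, no filter or the replicate block, ABCC3 with no filter or limma, and NQO1 with library size alone, no filter or limma. NFE2L2, the gene of NRF2 itself, gave -0.12 (edgeR adjusted p = 0.0784) and did not pass with all samples. With single samples left out, NFE2L2 ranged from -0.17 to -0.091 (edgeR adjusted p between 0.0251 and 0.244), so its call depended on the samples used. The NRF2 inhibitor KEAP1 gave 0.14 (edgeR adjusted p = 0.231) and did not pass. Of the 29 genes of this list that averaged at least 100 counts, 0 were at least 1.5-fold higher in control replicate 1 than in every other sample, where 0.227% of all genes were. Control replicate 1 was the highest sample, by any margin, for 10 of these 29 genes, and for 2309 of the 12766 genes overall.

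Of 26 tested carbonyl and aldehyde enzymes, some of which share substrates with the members, 3 were higher and 4 lower, with a median of 0.024. These shares are near the background of 10.4% higher and 12.4% lower over all genes. The mitochondrial folate enzyme ALDH1L2 (-0.41), ALDH3B1 (-0.32), ALDH2 (-0.31), which clears acetaldehyde, and GLO1 (-0.25), which clears methylglyoxal, fell, and the carbonyl reductase CBR4 (0.21) rose. CBR1, the cytosolic carbonyl reductase, gave -0.019 (edgeR adjusted p = 0.841). After control replicate 1 was left out, 1 was higher and 4 were lower; 1 was higher also without control replicate 2, control replicate 3 or knockdown replicate 1, and 0 without knockdown replicate 2. The call of CBR4 was lost when any sample but knockdown replicate 3 was left out (edgeR adjusted p between 0.0709 and 0.165), and that of ALDH1L2 without control replicate 2 or knockdown replicate 1 (0.0539 and 0.0517). Of 21 tested steroid and prostaglandin enzymes, 3 were higher and 4 lower, and 2 were lower without control replicate 2 or without knockdown replicate 2. HSD3B7 (0.54), of bile acid synthesis, SRD5A1 (0.18), a steroid 5-alpha-reductase, and HSD17B10 (0.18) rose, and STS (-0.49), the steroid sulfatase, and HSD17B12 (-0.17) were among those that fell. HSD17B10 missed the threshold without control replicate 1, control replicate 2 or knockdown replicate 2 (edgeR adjusted p between 0.0593 and 0.0749). Of 18 tested retinoid genes, 1 was higher, which held only with all samples or without knockdown replicate 2 among the fits with single samples left out. Those lower were 3, or 1 without control replicate 3, knockdown replicate 1 or knockdown replicate 2, namely the retinoic acid hydroxylase CYP26B1 (-0.35) and the receptors RARA (-0.22) and RARG (-0.18). These too were near the threshold, since CYP26B1 missed it without knockdown replicate 2 (edgeR adjusted p = 0.0616), RARA without control replicate 3, knockdown replicate 1 or knockdown replicate 2 (between 0.0638 and 0.0714), and RARG without control replicate 3, knockdown replicate 1 or knockdown replicate 3 (between 0.0653 and 0.105).

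A further list held genes for the supply of NADPH, the cofactor of the members, not all of which make NADPH themselves. Of 20 tested, 5 were higher and 5 lower, both with all samples and without control replicate 1, but 3 were lower without control replicate 2 or without knockdown replicate 1. The background over all genes was 10.4% higher and 12.4% lower. ME2 (0.32) and IDH1 (0.31) rose, and ALDH1L2 (-0.41), IDH2 (-0.29) and H6PD (-0.26) fell. IDH1, which makes NADPH in the cytosol, had 115.4, 116.1 and 116.8 CPM in the control and 141.8, 148.4 and 143.0 CPM in the knockdown samples, with no overlap, while its mitochondrial relative IDH2 moved the other way.

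**Figure D4:**
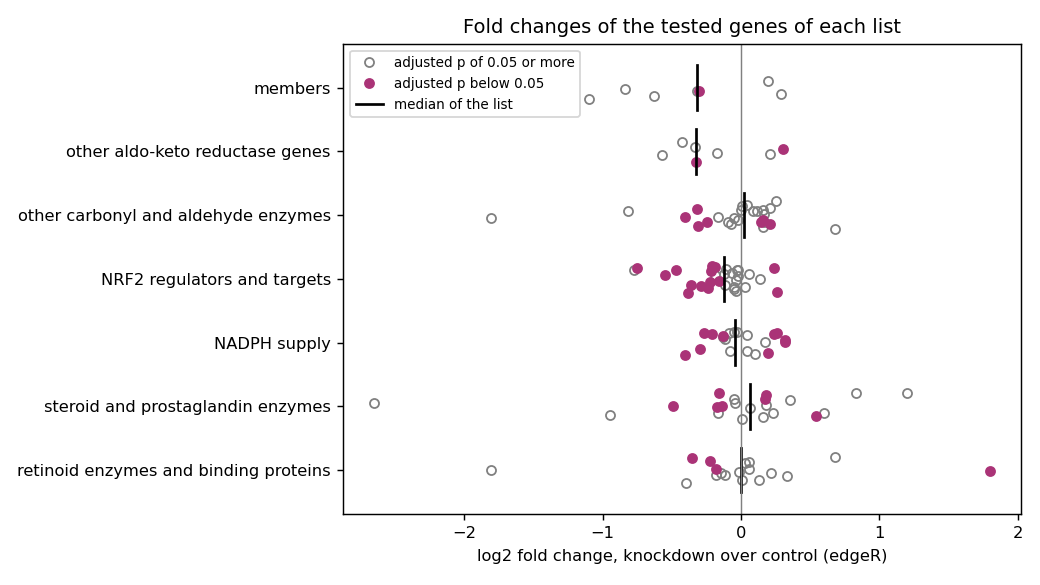
log2 fold change (knockdown over control, edgeR) of each tested gene of 7 lists, filled where the adjusted p was below 0.05, with the median of each list as a line. One of the 7 members (AKR1B1) is filled; the NRF2 list holds 12 filled genes below 0 and 2 above, and the carbonyl, NADPH and steroid lists hold filled genes on both sides.

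The genes whose pattern over the 6 samples was nearest to the AKR1C sum were sought among 9469 genes with a mean of at least 10 CPM, by the root mean square difference of centred log2 CPM. IGFBP4, which binds insulin-like growth factors, was nearest, at a difference of 0.173. It had 48.2, 19.0 and 25.0 CPM in the controls and 23.4, 22.5 and 22.9 CPM in the knockdown samples, again with its peak in control replicate 1. AC104581 (0.293), ADGRE2 (0.296), CBSL (0.353) and AC016876 (0.362) followed. For AKR1B10 the nearest were IGFBP4 (0.246), RBM14-RBM4 (0.338), CBSL (0.409), AC016876 (0.421) and PDK4 (0.446). All share the 6 libraries, so their likeness is a description.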

How the data were processed

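RNA of LM3 cells was sequenced on the Illumina NovaSeq system. The submitters' processing notes name cutadapt 1.9, FastQC and GRCh38, and the study mapped reads with HISAT2. The authors deposited raw counts per gene and FPKM values, which they scaled for gene length and sequencing depth. The counting program, its use of strand and the annotation release are not given in the sources used here.

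From the counts, low genes were removed by filterByExpr and the rest, TMM-scaled, were tested by group in edgeR 4.0.16 (glmQLFit, glmQLFTest; R 4.3.3). P-values were adjusted by Benjamini-Hochberg over 18390 genes. The standard error was taken as |log2 fold change| over the root of F. Between replicates, counts differed by more than sampling noise. The members and lists were chosen with earlier results of these data known. Named genes were the members, ZNF706, the other family genes, neighbours, the 5 nearest profiles and, per list, up to 5 called genes with the largest change at a mean of at least 1 CPM, plus 6 preset genes. ALDH1A1, ALDH3A1, HPGD, PTGS2, UCHL1, the markers and genes of the heat map were named after their values were seen. Coding sequences came from GENCODE release 29 and promoters from RefSeq. On simulated counts (17829 genes), 49.5% of genes changed by 0.6 and 56.2% of those changed by 1 on the log2 scale were called.

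Alternatives were DESeq2 1.42.0, its size factors in edgeR, library size alone, no filter, a minimum mean count of 50, a replicate block, each sample left out, and limma 3.58.1 on log2(FPKM + 0.1) and log2(FPKM + 1) for genes whose mean FPKM reached 1. Leaving out control replicate 1 and knockdown replicate 3 together was added after seeing the data.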

Additional observations from a re-analysis of the deposited data

How the results depend on the processing

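AKR1B1 kept its direction under every alternative listed in the processing, between -0.38 and -0.20 with single samples left out, but missed the threshold without a filter (-0.31) and with limma on log2(FPKM + 0.1) and log2(FPKM + 1) (-0.25 and -0.25), so that the count of members lower was 0 there and 0 to 2 with samples left out. AKR1A1 passed with library size alone (0.25) and both limma fits (0.25 and 0.23), and ranged from 0.11 to 0.26 with samples left out. AKR7A2 passed with DESeq2 (0.29), library size alone (0.34), a minimum mean count of 50 (0.29), the replicate block (0.30) and both limma fits (0.34 and 0.33), and ranged from 0.20 to 0.42. The count of members higher was thus 1, 2, 1, 1, 2 and 2, while all genes called higher numbered 2083, 2742, 2104, 1967, 2279 and 2288 against 1906; it was 0 to 1 with samples left out. Leaving out single samples gave -1.15 to -0.10 for AKR1B10, -0.52 to -0.17 for AKR1C1, -1.58 to 0.44 for AKR1C2, -0.95 to -0.04 for AKR1C3, -0.89 to -0.037 for the AKR1C sum and -0.73 to -0.25 for AKR1B10 with AKR1B15, which also passed with the replicate block (-0.52). Without control replicate 1 and knockdown replicate 3 together, AKR1C2 (0.83), AKR1C3 (0.15) and the AKR1C sum (0.083) turned positive. The mean log2 ratio differences ranged from -0.45 to 0.86 for AKR1C1 to AKR1C2, -0.10 to 0.48 for AKR1C1 to AKR1C3 and -0.62 to 0.23 for AKR1B10 to AKR1B1. All genes called numbered 2648 to 3424 with single samples left out, the fewest without knockdown replicate 2. No filter gave 1253 called higher and 1737 called lower, and library size alone 2742 and 1518, against 1906 and 2286. Of the hepatic markers 2 were lower, but 4 with the replicate block, 1 without a filter, and 0 and 1 in the limma fits. The limma fits took only genes whose mean FPKM reached 1, which left out SERPINA1, APOB and, of the NRF2 list, OSGIN1. Their calls could therefore not appear in the limma counts. Of the NRF2 list 12 were lower, but 7 without a filter and 6 in each limma fit; of the carbonyl list 3 were higher, but 6 with library size alone and in each limma fit, and 1 without a filter. Of the steroid list 4 were lower, but 2 with library size alone and in each limma fit, and of the retinoid list 3 were lower, but 1 with library size alone.

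Among other genes named, signs turned with control replicate 1 and knockdown replicate 3 left out for AKR7A3 (-0.24), SLC35B4 (0.017), UCHL1 (0.61), ALDH1A1 (0.44), ALDH3A1 (0.69), HPGD (0.082), IGFBP4 (0.063), AC104581 (0.22), ADGRE2 (0.086) and RBM14-RBM4 (0.23). SORD, near 0, was 0.0043 with DESeq2, 0.053 with library size alone, 0.0041 with a minimum mean count of 50, and 0.048 and 0.042 in the limma fits, and CBR1 was 0.034 with library size alone and 0.027 and 0.026 in the limma fits. With single samples left out, AKR1C7P ran from -1.31 to 0.0044, AKR7A3 from -0.11 to 0.40, SLC35B4 from -0.12 to 0.0061, AC009275 from -0.0065 to 0.16, UCHL1 from -1.39 to 0.51, ALDH3A1 from -1.26 to 0.47, SORD from -0.014 to 0.013, CBR1 from -0.077 to 0.026, IGFBP4 from -0.67 to 0.057, AC104581 from -0.36 to 0.14, RBM14-RBM4 from -0.57 to 0.24. Calls of other named genes were also lost for AKR1B15 (DESeq2, library size alone, replicate block), KCNAB2 (limma), OSGIN1 (DESeq2, library size alone, no filter, replicate block), ABCC3 and AC016876 (no filter, limma), NQO1 and RARG (library size alone, no filter, limma), RARA (library size alone), CBR4 (no filter, DESeq2 size factors), and ALDH1L2 and APOB (no filter), and gained for RPL26P28 (limma) and NFE2L2 (replicate block, adjusted p = 0.0401). NFE2L2 also passed in a fit with a single sample left out (lowest edgeR adjusted p = 0.0251). AKR1C2 had no limma value, since its mean FPKM is below 1. The cause of these changes was not tested.

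Same-numbered samples of the groups had correlations of 0.057, 0.0030 and 0.106 in their deviations, so the numbers were not taken to pair them. Not every sample correlated best with its own number. The replicate block gave 4361 called genes against 4192. A missed threshold does not show, at 3 samples a group, that a member did not change. Scaling moved the median of all genes to at most 0.063.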

Other observations

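Besides the members, the genes that stood highest above every other sample in control replicate 1 were ALDH1A1 (4.40-fold), UCHL1 (3.99-fold), a ubiquitin hydrolase of neurons, PTGS2 (3.46-fold), the inducible cyclooxygenase, and ALDH3A1 (3.09-fold). PTGS2 had 7.27, 0.0629 and 2.10 CPM in the controls and 0.770, 0.731 and 0 CPM in the knockdown samples. UCHL1 had 4.64, 0.519 and 0.977 CPM against 1.11, 1.16 and 0.929 CPM. Knockdown replicate 3 held the lowest value of PTGS2 but not of UCHL1. AFP (alpha-fetoprotein) stood at 1.15, 3.62 and 4.11 CPM in the controls and at 2.70, 2.33 and 0.443 CPM in the knockdown samples, lowest in knockdown replicate 3 and next lowest in control replicate 1. These genes were chosen after their values were seen, and the cause was not tested.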
